A study of Mus musculus with 40 samples.

Results

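The collagens are the fibrous and sheet-forming proteins of the extracellular matrix, and each is assembled from 3 α chains that are encoded by separate genes. The members described here are the genes of the deposited count table with a collagen chain symbol and at least 10 counts in at least 3 of the 38 libraries not described as failing quality control. There were 36 such genes among 44 with a collagen chain symbol and 55487 in the table, namely 9 chains of fibrillar collagens, 6 of basement membrane collagens, 5 of beaded filament collagens, and 16 of other kinds. The 8 genes left out were Col2a1, Col6a4, Col9a1, Col9a2, and Col26a1, which reached 10 counts in 0 libraries, Col11a1 and Col19a1, which reached it in 1, and Col22a1, which reached it in 2. Just inside the rule were Col28a1, with 10 counts in 5 libraries, and Col9a3, in 14. Col28a1 met the rule through HNKO libraries alone, with 5 HNKO and 0 WT libraries at 10 counts, so its difference between genotypes follows in part from the rule.

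In a healthy liver, fibrillar collagens lie around portal tracts and central veins, and a loose matrix with basement membrane components lines the sinusoids. Hepatic stellate cells and portal fibroblasts make most type I and type III collagen, and in injured liver they turn into matrix-producing myofibroblasts whose deposits of type I, III, V, and VI collagen form the scar of fibrosis. Type IV collagen forms the basement membranes of bile ducts and vessels, and type XVIII collagen, which carries the anti-angiogenic fragment endostatin, is made in liver largely by hepatocytes.

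Livers were taken from HNKO mice and WT littermates after 3, 6, 12, or 21 days on a purified diet (PD), and total RNA was sequenced from whole liver. HNKO mice carried floxed alleles of Nampt, the rate-limiting enzyme of NAD+ salvage, on both chromosomes (Nampt fl/fl) together with 1 copy of an albumin-Cre transgene (Alb-Cre +/-), and the WT littermates carried the floxed alleles. All mice were female, of the C57BL/6JBomTac background, and 9 weeks old when PD feeding began; the labels list the days of feeding under age. The groups held 5, 4, 5, and 5 WT libraries and 5, 5, 6, and 3 HNKO libraries at days 3, 6, 12, and 21. The albumin promoter drives Cre in hepatocytes and is not meant to delete Nampt in other liver cells, and in bulk RNA of whole liver fewer cells of a type and less RNA per cell cannot be told apart. The labels do not tie each library to an animal, so p-values measure the spread between these libraries.

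The 38 libraries held 16151037 to 64181492 counts. Nampt levels, as counts scaled by TMM to the size of the library (CPM), ranged from 30.3 to 82.0 in HNKO and from 57.4 to 155 in WT, and the log2 fold change of HNKO against WT lay between -0.93 and -0.69 over the days, with an adjusted p of 0.161 at day 21 and of at most 0.0208 at the other days (edgeR's quasi-likelihood test, as for all genes below). HNKO libraries 17 and 18 of day 21 were described as failing quality control and left out.

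Chains of the collagens found in scar tissue were higher in HNKO livers. Col1a1, the α1 chain of type I collagen, was 16.2-fold higher at day 6, and Col3a1, the chain of type III collagen, 6.33-fold. Col5a2 of type V and Col6a3 of type VI collagen rose at all 4 days, as Col1a1 did, and Col1a2, Col3a1, Col4a1, Col4a2, and Col4a5 rose at 3 days each. Of the day 3 calls, those of Col1a1, Col3a1, Col4a1, Col5a2, Col6a3, and Col16a1 were lost in a fit on the 2 groups of day 3 alone (adjusted p = 0.0536 to 0.148). With all 40 libraries the calls of Col1a1, Col3a1, Col4a1, and Col16a1 at day 3 and of Col1a2 and Col6a3 at day 12 were lost (0.0509 to 0.0794). Without a filter on low counts Col1a1 was not called at day 3 (adjusted p = 0.0516). Col13a1, a transmembrane collagen, was lower at day 6, a call that was lost in a fit on the 2 groups of that day (adjusted p = 0.0694). Col18a1, the chain at the highest level in these livers, was lower over the mean of the 4 days. A gene is called here when its adjusted p was under 0.05 over the 20297 genes tested, and log2 fold changes are given ± their SE.

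At day 3, 7 of the 36 chains were called higher in HNKO (beside 2.95% of all genes tested) and 0 lower (1.71%). At day 6, 16 were called higher (8.42%) and 1 lower (4.37%). At day 12 the counts were 7 higher (4.56%) and 0 lower (3.27%), and at day 21 they were 8 higher (2.21%) and 0 lower (0.916%). At an unadjusted p under 0.05, edgeR put 15, 19, 13, and 19 chains higher in HNKO at days 3, 6, 12, and 21, beside 11.5%, 15%, 13.1%, and 10.4% of all genes. By the same measure 1, 4, 2, and 3 chains were lower, beside 9.35%, 11.7%, 11.3%, and 7.63% of all genes, and DESeq2 called 0 chains lower at days 3, 12, and 21. Averaged over the 4 days, 23 chains were called higher (19.2%) and 3 lower (17.3%), the latter being Col13a1, Col18a1, and Col24a1. The 23 include Col28a1, which met the member rule through HNKO libraries alone, so nothing is read from its call. Without it, 22 of 35 chains were called higher.

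Single libraries decided many of these counts. The 7 higher calls of day 3 became 0 without HNKO library 2, HNKO library 23, or WT library 5, 3 without HNKO library 3 or WT library 25, and 4 without WT library 24, and 3 with all 40 libraries in the fit. The 16 of day 6 became 9 without HNKO library 7 and 10 without WT library 10. The 7 of day 12 became 1 without HNKO library 13, 2 without WT library 15, 3 without WT library 16 or 33, and 4 without HNKO library 12 or WT library 34, and 3 with all 40 libraries. The 8 of day 21 became 0 without HNKO library 37 and 5 without WT library 21. The 1 lower call of day 6, Col13a1, was lost without WT library 8, and 2 or 3 chains were called lower without HNKO library 4, 6, 22, or 23 or WT library 24, 28, or 41. Without HNKO library 40, 1 chain was called lower at day 21. The calls over all genes, from which the shares above were taken, moved too. The higher calls of day 3 over all genes fell from 598 to 213 without HNKO library 2, 226 without HNKO library 23, 352 without HNKO library 3, 272 without WT library 25, 340 without WT library 5, and 364 without WT library 24. They rose to 1006 without HNKO library 22 and 903 without HNKO library 4. Those of day 6 fell from 1709 to 909 without HNKO library 29, and to 1337 and 1167 without HNKO library 7 and WT library 10. Those of day 12 fell from 925 to 513, 563, and 574 without WT library 33, HNKO library 13, and WT library 15. Those of day 21 fell from 448 to 12 without HNKO library 37 and to 206, 237, 264, and 284 without WT libraries 19, 41, 21, and 20, and rose to 693 without HNKO library 29 of day 6. With all 40 libraries the higher calls over all genes were 210, 859, 368, and 906 at days 3, 6, 12, and 21, and in fits on the 2 groups of a day they were 284, 1040, and 507 at days 3, 6, and 12. The lower calls over all genes, 347, 887, 663, and 186 at the 4 days, ranged from 91 to 662, 217 to 1060, 278 to 686, and 1 to 222 as each library was left out. With all 40 libraries the lower calls were 121, 462, 256, and 444, and without a filter on low counts 186, 454, 359, and 86. Fits on the 2 groups of a day gave 153, 258, and 312 at days 3, 6, and 12, and DESeq2 gave 614 and 322 at days 3 and 21. Over the mean of the days, leaving out any 1 library gave 21 to 23 higher calls and 3 lower calls.

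Higher calls at 3 or more days were made for 8 of the 36 chains, beside 1.87% of all genes, and at all 4 days for 3 of them, beside 0.823%. The median log2 fold change of the 36 chains was 0.57, 1.04, 0.35, and 0.70 at days 3, 6, 12, and 21, where the median over all genes tested lay between -0.01 and 0.01. Without any overlap between genotypes, 14 chains were higher in every HNKO library than in every WT library at day 6 (beside 8.08% of all genes), 1 at day 3 (2.31%), 4 at day 12 (2.65%), and 16 at day 21 (7.25%), where 3 HNKO libraries were compared. The map of fold changes by class shows the higher values in the fibrillar, basement membrane, and beaded filament rows and values near 0 in many of the others.

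**Figure D1:**
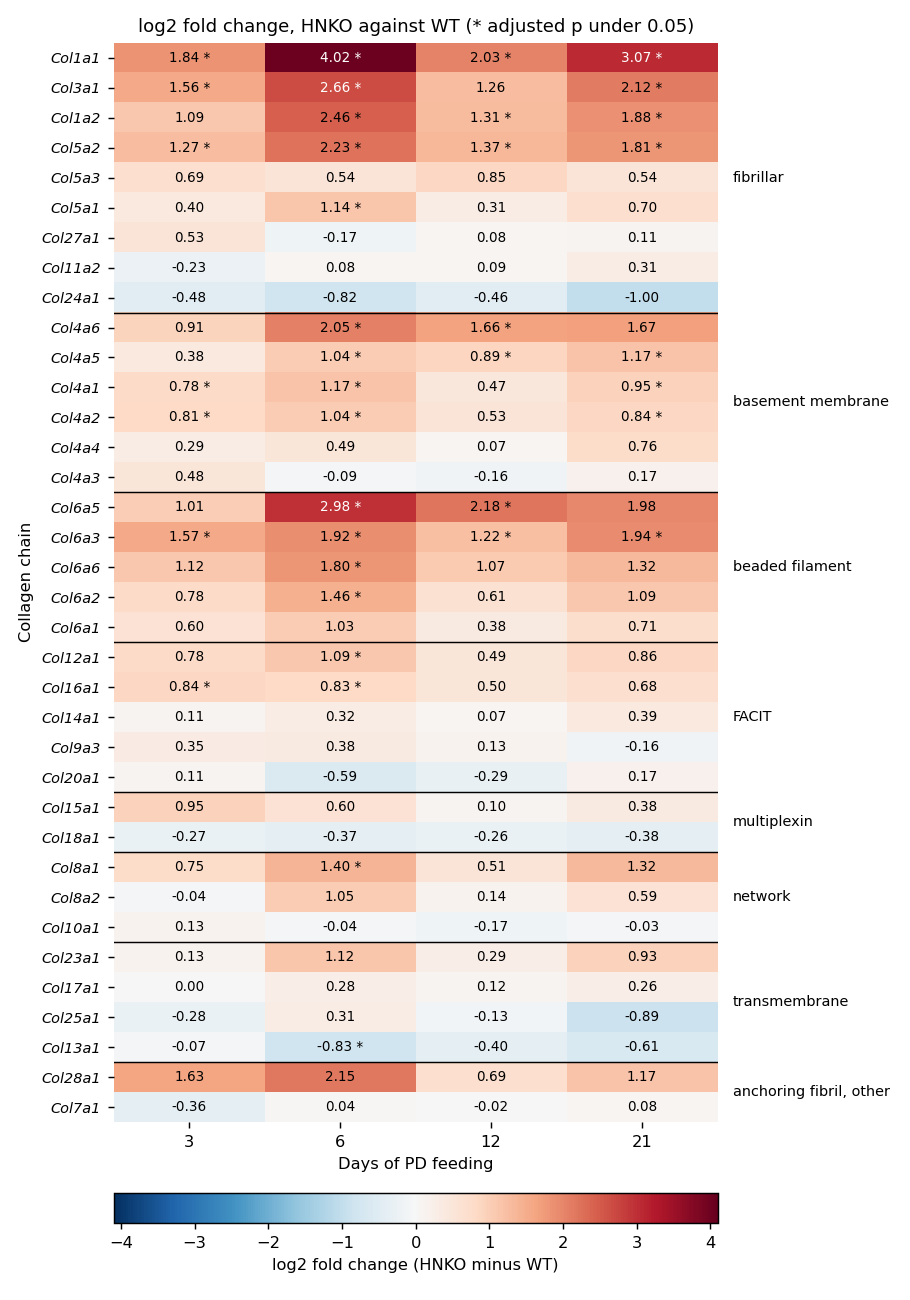
Rows are the 36 collagen chains grouped by class, columns the days of PD feeding, and each cell gives the log2 fold change of HNKO against WT, coloured from blue (lower) to red (higher); an asterisk marks an adjusted p under 0.05. Col1a1 has the highest value, 4.02 at day 6, and 16 cells of the day 6 column are marked as higher against 7, 7, and 8 at days 3, 12, and 21.

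Fibrillar collagens form the banded fibrils that bear tension. Of their 9 chains, 3, 5, 3, and 4 were called higher at days 3, 6, 12, and 21 (beside 2.95%, 8.42%, 4.56%, and 2.21% of all genes). At each day 0 were called lower (beside 1.71%, 4.37%, 3.27%, and 0.916%), a count near these shares for so few chains. The median log2 fold change of the class was 0.69, 1.14, 0.85, and 0.70. Col1a1, Col1a2, Col3a1, Col5a1, and Col5a2, of type I, type III, and type V collagen, were called higher at 1 or more days, whereas Col5a3, Col11a2, Col24a1, and Col27a1 were called at 0 days.

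Col1a1 (ENSMUSG00000001506.10; chromosome 11, positions 94936224 to 94953042 on the forward strand of GRCm38) encodes the chain that is present in more copies in type I collagen. At day 3, WT libraries held it at 4.82, 11.9, 13.5, 14.6 and 17.9 CPM and HNKO libraries at 7.62, 12.8, 36.4, 80.4 and 88.0 CPM. HNKO libraries 22 and 4 lay within the WT range and libraries 3, 2, and 23 above it, for a log2 fold change of 1.84 ± 0.55 (adjusted p = 0.0460). At day 6, WT libraries held 3.13, 4.12, 5.31 and 8.14 CPM and HNKO libraries 27.97, 57.2, 58.4, 86.9 and 189 CPM, for a log2 fold change of 4.02 ± 0.67 (adjusted p = 0.000197). Every HNKO library of day 6 was above every WT library, and library 29 was the highest. At day 12, WT libraries held 3.79, 7.36, 7.65, 8.18 and 18.1 CPM and the 6 HNKO libraries 21.3 at the lowest, 33.2 at the median and 62.8 at the highest, for a log2 fold change of 2.03 ± 0.54 (adjusted p = 0.0200). At day 21, WT libraries held 5.73, 6.93, 8.59, 9.78 and 12.2 CPM and HNKO libraries 19.9, 53.5 and 144 CPM, for a log2 fold change of 3.07 ± 0.61 (adjusted p = 0.00526). The groups did not overlap at days 12 and 21, and library 37 was the highest of day 21.

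The day 3 call of Col1a1 was close to the threshold: it was lost without any 1 of 16 libraries, which were HNKO library 2, 3 or 23 or WT library 1, 5, 24, 25 or 26 of day 3, HNKO library 30 or WT library 8 or 28 of day 6, WT library 33 or 34 of day 12, and WT library 19, 20 or 21 of day 21, with adjusted p of 0.05001 to 0.164. The day 12 call of Col1a1 was lost without HNKO library 13 (adjusted p = 0.0516) or WT library 15 (0.0595), and the day 21 call without HNKO library 37 (0.269), where the log2 fold change was 2.11. The day 6 call was made without each library in turn.

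Col1a2 (ENSMUSG00000029661.16; chromosome 6, positions 4504814 to 4541544 on the forward strand of GRCm38) encodes the other chain of type I collagen. At day 3 the WT values of 16.8, 30, 30.5, 33.9 and 35.2 CPM and the HNKO values of 18.1, 27.4, 48.2, 101 and 118 CPM overlapped, and the log2 fold change of 1.09 ± 0.41 (adjusted p = 0.108) missed the threshold. At day 6, WT libraries held 14.3, 14.5, 18.2 and 21.7 CPM and HNKO libraries 41.7, 56.6, 75.9, 111 and 186 CPM, without overlap and for a log2 fold change of 2.46 ± 0.46 (adjusted p = 0.000651). At day 12, WT libraries held 13.7, 17.96, 19.3, 19.6 and 29.7 CPM and HNKO libraries 27.9 at the lowest, 48.1 at the median and 83.4 at the highest, for a log2 fold change of 1.31 ± 0.40 (adjusted p = 0.0379). HNKO libraries 36 and 11 of day 12 lay below the highest WT library, 14. At day 21, WT libraries held 16.8, 19.5, 20.2, 21.1 and 23.2 CPM and HNKO libraries 31.2, 62.1 and 129.8 CPM, without overlap and for a log2 fold change of 1.88 ± 0.45 (adjusted p = 0.0187). Without HNKO library 22, Col1a2 was called at day 3 as well (adjusted p = 0.0321). Its day 12 call was lost without HNKO library 12, 13 or 32 or WT library 15, 16, 33 or 34 (adjusted p = 0.0560 to 0.102), and its day 21 call without HNKO library 37 (0.477), where the log2 fold change was 1.23.

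Col3a1 (ENSMUSG00000026043.18; chromosome 1, positions 45311538 to 45349706 on the forward strand of GRCm38) encodes the single chain of type III collagen, the reticulin of the liver. At day 3, WT libraries held 50.5, 85.4, 91.7, 94.0 and 119 CPM and HNKO libraries 53.8, 94.5, 196, 465 and 489 CPM, for a log2 fold change of 1.56 ± 0.46 (adjusted p = 0.0423). HNKO libraries 22 and 4 were again within the WT range. At day 6, WT libraries held 43.5, 44.2, 50.7 and 53.3 CPM and HNKO libraries 123, 153, 259, 398 and 583 CPM, without overlap and for a log2 fold change of 2.66 ± 0.52 (adjusted p = 0.000906). At day 12, WT libraries held 46.3, 46.4, 46.8, 64.6 and 98.1 CPM and HNKO libraries 72.0 at the lowest, 129.8 at the median and 259 at the highest, and the log2 fold change of 1.26 ± 0.44 (adjusted p = 0.0684) missed the threshold. The overlap at day 12 came from HNKO libraries 36 and 35, which lay below WT library 14. At day 21, WT libraries held 49.5, 50.3, 52.0, 61.1 and 68.9 CPM and HNKO libraries 93.7, 216 and 425 CPM, without overlap and for a log2 fold change of 2.12 ± 0.51 (adjusted p = 0.0179). The day 3 call was lost without HNKO library 2, 3 or 23 or WT library 1, 5, 24 or 25 (adjusted p = 0.0615 to 0.164), and the day 21 call without HNKO library 37 (0.430), where the log2 fold change was 1.48. At day 12, Col3a1 was called without HNKO library 36 of that day (0.0480), WT library 14 (0.0493), or HNKO library 22 of day 3 (0.0423). DESeq2 also called it at day 12 (adjusted p = 0.0373).

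Promoter windows of 300 bases around the annotated start (250 before to 50 after) were taken from RefSeq on GRCm38.p6 and matched 30 of the 36 chains by symbol. The stretches of the Col1a2, Col3a1, and Col6a3 windows that lie before the RefSeq start and outside annotated exons are printed 5′ to 3′ on the strand of the gene, to show the sequence next to the start of a chain of type I, type III, and type VI collagen. The Col1a2 stretch lies within the gene as GENCODE places it, past the first start annotated there. Capitals mark exact matches on either strand to a CCAAT box (CCAAT, or ATTGG on the other strand), a GC box (GGGCGG, or CCGCCC), or a TATA box (TATAAA, or TTTATA). The AP-1 site TGAGTCA (or TGACTCA) was also searched, and no letters of these motifs overlap each other here.
Col1a2, chr6:4505370-4505492, forward strand: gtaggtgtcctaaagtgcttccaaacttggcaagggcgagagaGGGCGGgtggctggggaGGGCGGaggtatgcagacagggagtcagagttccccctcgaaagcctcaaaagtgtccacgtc
Col3a1, chr1:45311288-45311537, forward strand: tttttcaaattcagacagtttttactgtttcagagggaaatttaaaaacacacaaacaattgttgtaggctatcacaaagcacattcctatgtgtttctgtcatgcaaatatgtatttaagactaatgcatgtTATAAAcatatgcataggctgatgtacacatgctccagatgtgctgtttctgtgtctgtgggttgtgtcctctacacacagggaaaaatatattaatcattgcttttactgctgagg
Col6a3, chr1:90843972-90844221, reverse strand: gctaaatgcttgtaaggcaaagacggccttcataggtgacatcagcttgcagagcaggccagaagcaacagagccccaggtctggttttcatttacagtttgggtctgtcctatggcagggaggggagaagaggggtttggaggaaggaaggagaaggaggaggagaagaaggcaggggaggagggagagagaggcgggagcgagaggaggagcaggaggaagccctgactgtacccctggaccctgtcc
The Col1a2 stretch held a pair of GC boxes, 205 and 188 bases before the start, and was 59.3% G and C. The Col3a1 stretch held a TATA box 117 bases before the start and was 35.2% G and C. The Col6a3 stretch held 0 matches and was 57.2% G and C. Over all 32851 windows, 37.4% held a CCAAT box, 35.7% a GC box, and 13.6% a TATA box, and of the 30 chains 10, 19, and 5 did. The AP-1 site was found in 5.2% of all windows and, among the chains, in the window of Col6a1.

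Col5a2 (ENSMUSG00000026042.16; chromosome 1, positions 45374321 to 45503282 on the reverse strand of GRCm38) encodes a chain of type V collagen, which starts type I fibrils and limits their width. At day 3, WT libraries held 7.87, 14.04, 14.9, 15.2 and 15.7 CPM and HNKO libraries 15.9, 17.2, 36.1, 46.9 and 48.0 CPM. This was the 1 chain without overlap at day 3, by a narrow gap between WT library 26 and HNKO library 22, and its log2 fold change was 1.27 ± 0.31 (adjusted p = 0.0152). At day 6, WT libraries held 8.01, 8.20, 8.68 and 9.06 CPM and HNKO libraries 21.7, 23.4, 27.4, 62.2 and 64.0 CPM, for a log2 fold change of 2.23 ± 0.35 (adjusted p = 9.09e-05). On day 12 the WT libraries held 6.62, 7.77, 9.58, 10.8 and 10.9 CPM and HNKO libraries 15.2 at the lowest, 22.6 at the median and 36.98 at the highest, for a log2 fold change of 1.37 ± 0.30 (adjusted p = 0.00665). On day 21 the WT libraries held 7.33, 7.87, 7.99, 8.08 and 9.17 CPM and HNKO libraries 17.5, 22.99 and 44.5 CPM, for a log2 fold change of 1.81 ± 0.34 (adjusted p = 0.00431). The groups did not overlap at any of the 4 days, and the calls of days 6 and 12 were made without each library in turn. The day 3 call was lost without HNKO library 2 or 23 or WT library 5 (adjusted p = 0.0503 to 0.0660), and the day 21 call without HNKO library 37 (0.224).

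The other chains of type V collagen differed less. Col5a1 was called at day 6, with 39.4 ± 15.5 CPM in HNKO (SD, n = 5) and 17.9 ± 2.52 CPM in WT (n = 4) and a log2 fold change of 1.14 ± 0.25 (adjusted p = 0.00276), and its log2 fold changes at the other days lay between 0.31 and 0.70. Col5a3 was called at 0 days, with log2 fold changes of 0.54 to 0.85, but was called over the mean of the days (0.66 ± 0.15, adjusted p = 0.000973). Col24a1, a fibrillar collagen known from developing bone, ran the other way: its log2 fold change was -0.48, -0.82, -0.46, and -1.004, and the mean over the days, -0.69 ± 0.15 (adjusted p = 0.000622), was called lower. Col11a2 (log2 fold changes of -0.23 to 0.31) and Col27a1 (-0.17 to 0.53) were not called at any day or over the mean of the days.

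**Figure D2:**
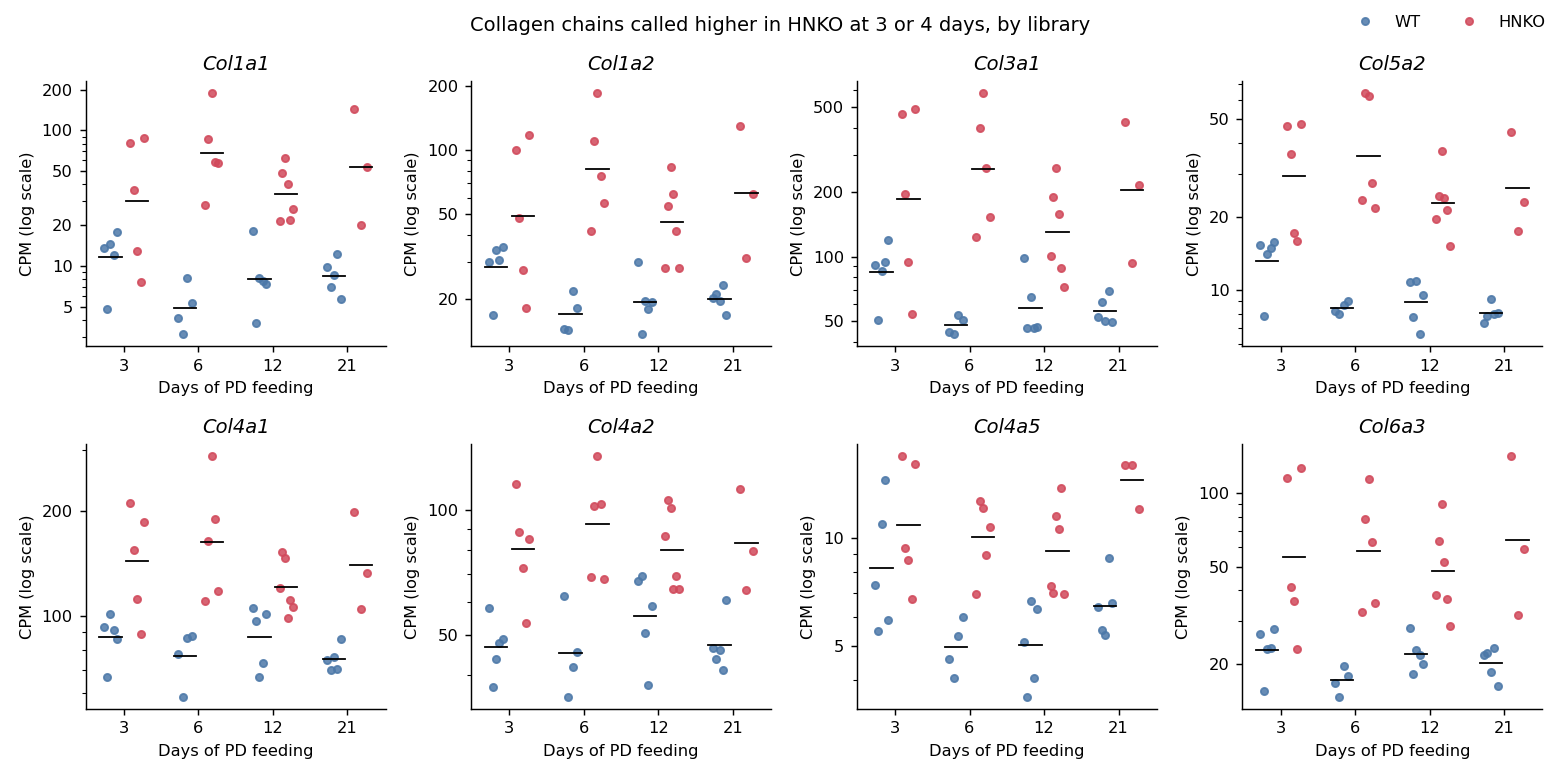
Each point is 1 library, plotted as CPM on a log scale against days of PD feeding, with WT in blue and HNKO in red and a bar at the geometric mean of each group. HNKO points lie above all WT points at day 6 in the 8 panels, whereas at day 3 the lowest HNKO point (library 22) falls within or near the WT range, and at day 21 library 37 is the highest HNKO point or level with it.

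Type IV collagen chains build the sheet of the basement membrane. Of the 6 chains, 2, 4, 2, and 3 were called higher at days 3, 6, 12, and 21 (beside 2.95%, 8.42%, 4.56%, and 2.21% of all genes). None was called lower, a count near the shares of all genes called lower for so few chains. The class median of the log2 fold change was 0.63, 1.04, 0.50, and 0.89. Col4a1, Col4a2, Col4a5, and Col4a6 were higher at 2 or 3 days each, and Col4a3 and Col4a4, which are best known from the kidney filter, at 0.

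Col4a1 (ENSMUSG00000031502.11; chromosome 8, positions 11198423 to 11312826 on the reverse strand of GRCm38) and Col4a2 (ENSMUSG00000031503.13; chromosome 8, positions 11312805 to 11449287 on the forward strand of GRCm38) encode the pair of chains found in most basement membranes, and they lie head to head. At day 3, Col4a1 was at 66.6, 85.5, 91.2, 93.0 and 101 CPM in WT and 88.7, 112, 155, 186 and 211 CPM in HNKO, for a log2 fold change of 0.78 ± 0.22 (adjusted p = 0.0334). At day 6 it was at 58.5, 77.6, 86.5 and 87.3 CPM in WT and 110.4, 118, 164, 189.6 and 288 CPM in HNKO, for a log2 fold change of 1.17 ± 0.24 (adjusted p = 0.00129). The groups did not overlap at day 6, and at day 3 HNKO library 22 lay within the WT range. At day 12 Col4a1 was at 66.5, 73.4, 96.7, 102 and 105 CPM in WT and in HNKO at 98.7 at the lowest, 116 at the median and 153 at the highest, and the log2 fold change of 0.47 ± 0.21 (adjusted p = 0.162) missed the threshold. At day 21 it was at 69.7, 70.5, 74.5, 76.3 and 85.7 CPM in WT and 104, 133 and 199 CPM in HNKO, without overlap and for a log2 fold change of 0.95 ± 0.25 (adjusted p = 0.0279). The day 3 call of Col4a1 was lost without HNKO library 2, 3 or 23 or WT library 5, 25 or 26 (adjusted p = 0.0552 to 0.137), and the day 21 call without HNKO library 37 (0.485) or WT library 19, 20 or 21 (lowest adjusted p 0.0504).

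Col4a2 followed the same days. WT and HNKO libraries held it at 37.5, 43.7, 47.7, 48.9 and 58.1 CPM and 53.5, 72.4, 85.2, 88.4 and 115 CPM at day 3, for a log2 fold change of 0.81 ± 0.21 (adjusted p = 0.0202). At day 6 they held 35.5, 41.8, 45.5 and 61.9 CPM and 67.9, 69.0, 102, 103 and 135 CPM, for a log2 fold change of 1.04 ± 0.22 (adjusted p = 0.00192). HNKO library 22 was again inside the WT range at day 3, and there was no overlap at day 6. At day 12 WT libraries held 37.9, 50.5, 58.5, 67.4 and 69.2 CPM and HNKO libraries 64.3 at the lowest, 77.8 at the median and 105 at the highest, and the log2 fold change of 0.53 ± 0.20 (adjusted p = 0.0897) missed the threshold. At day 21 the values were 41.2, 43.7, 45.9, 46.6 and 60.6 CPM and 64.2, 79.3 and 112 CPM, for a log2 fold change of 0.84 ± 0.23 (adjusted p = 0.0388) and no overlap. WT library 41 was high for its group at day 21. The day 3 call of Col4a2 was lost without HNKO library 2 or 23 or WT library 5 (adjusted p = 0.0512 to 0.0923), and the day 21 call without HNKO library 37 or 40 or WT library 19, 20, 21 or 39 (0.0509 to 0.527, the highest without HNKO library 37).

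The annotated exons of Col4a1 and Col4a2 overlap by 22 bases at their starts, on opposite strands. Whether the counting used strand is not given in the sources used here, so reads on those 22 bases cannot be assigned with certainty, beside median counts of 2808.5 for Col4a1 and 1792.5 for Col4a2. The promoter windows of the pair share 78 bases, chr8:11312777-11312854, and each window lies within annotated exons of the pair. Both windows held a CCAAT box and at least 1 GC box.

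Col4a5 (ENSMUSG00000031274.16; chromosome X, positions 141475385 to 141689234 on the forward strand of GRCm38) encodes the α5 chain of type IV collagen, which joins the α3 and α4 chains in the kidney and the α6 chain in other basement membranes. At day 3 its WT values of 5.50, 5.89, 7.36, 10.9 and 14.5 CPM and HNKO values of 6.74, 8.64, 9.37, 16.03 and 16.9 CPM overlapped, and the log2 fold change of 0.38 ± 0.25 (adjusted p = 0.407) missed the threshold. At day 6 WT libraries held 4.05, 4.60, 5.31 and 6.02 CPM and HNKO libraries 6.96, 8.93, 10.7, 12.1 and 12.6 CPM, for a log2 fold change of 1.04 ± 0.28 (adjusted p = 0.0125). At day 12 WT libraries held 3.602, 4.06, 5.11, 6.33 and 6.65 CPM and HNKO libraries 6.95 at the lowest, 8.95 at the median and 13.7 at the highest, for a log2 fold change of 0.89 ± 0.25 (adjusted p = 0.0257). The groups did not overlap at days 6, 12, and 21. At day 21 WT libraries held 5.35, 5.53, 6.43, 6.59 and 8.79 CPM and HNKO libraries 12.0, 15.9 and 15.9 CPM, for a log2 fold change of 1.17 ± 0.29 (adjusted p = 0.0205). The spread within HNKO was narrower for Col4a5 at day 21 than for Col1a1. The call of Col4a5 was lost at day 6 without WT library 10 (adjusted p = 0.0507), at day 12 without HNKO library 13 or 35 or WT library 15 or 33 (0.0567 to 0.0779), and at day 21 without HNKO library 37 (0.245) or WT library 21 (0.0523).

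The remaining type IV chains were at low levels. Col4a6, the partner of Col4a5, was called at day 6 (1.11 ± 0.438 CPM in HNKO, SD, n = 5, and 0.265 ± 0.172 CPM in WT, n = 4), for a log2 fold change of 2.05 ± 0.62 (adjusted p = 0.0260), and at day 12 (1.66 ± 0.48, adjusted p = 0.0301). The day 6 call of Col4a6 was lost without HNKO library 7 or 29 or WT library 10 or 28 (adjusted p = 0.0619 to 0.0889) and with all 40 libraries (0.104). Its day 12 call was lost without HNKO library 13 or 35 or WT library 15, 16 or 34 (adjusted p = 0.0607 to 0.123), with all 40 libraries (0.128), and in a fit on the 2 groups of day 12 (0.107). The log2 fold change of Col4a6 was 1.67 at day 21 without a call. Col4a4 was called over the mean of the days (0.40 ± 0.14, adjusted p = 0.0214) and at 0 single days. That call was lost without HNKO library 37 (adjusted p = 0.0533) and with all 40 libraries (0.233). Col4a3 was not called, with log2 fold changes from -0.16 to 0.48. The exons of Col4a3 overlap those of C430014B12Rik on the opposite strand by 563 bases.

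Type VI collagen forms beaded filaments that link cells to the fibrillar matrix. Of its 5 chains, 1, 4, 2, and 1 were called higher at days 3, 6, 12, and 21 (beside 2.95%, 8.42%, 4.56%, and 2.21% of all genes). None was called lower, a count near the shares of all genes called lower for so few chains. The class median was the highest of the 3 main classes at days 3, 6, 12, and 21, with log2 fold changes of 1.01, 1.80, 1.07, and 1.32. All 5 chains were called higher over the mean of the days, and the single-day calls fell mostly on the α3 chain and on the α5 and α6 chains that can take its place.

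Col6a3 (ENSMUSG00000048126.16; chromosome 1, positions 90765923 to 90843971 on the reverse strand of GRCm38) encodes the large α3 chain. At day 3, WT libraries held 15.5, 22.96, 23.1, 26.3 and 27.7 CPM and HNKO libraries 22.9, 36.2, 41.1, 116 and 127 CPM, for a log2 fold change of 1.57 ± 0.39 (adjusted p = 0.0179). HNKO library 22 lay below 4 WT libraries, and libraries 2 and 23 lay far above the rest. At day 6 WT libraries held 14.6, 16.6, 17.8 and 19.6 CPM and HNKO libraries 32.5, 35.3, 62.9, 78.1 and 115 CPM, for a log2 fold change of 1.92 ± 0.43 (adjusted p = 0.00295). For day 12, the WT values were 18.2, 19.9, 21.8, 22.7 and 28.01 CPM and the HNKO values 28.6 at the lowest, 45.3 at the median and 90.3 at the highest, for a log2 fold change of 1.22 ± 0.37 (adjusted p = 0.0381). There was no overlap from day 6 on. At day 21 WT libraries held 16.2, 18.5, 21.7, 22.1 and 23.1 CPM and HNKO libraries 31.6, 58.8 and 142 CPM, for a log2 fold change of 1.94 ± 0.43 (adjusted p = 0.0116). The call of Col6a3 was lost at day 3 without HNKO library 2 or 23 or WT library 5 (adjusted p = 0.0516 to 0.0914), at day 12 without HNKO library 12 or 13 or WT library 15, 16, 33 or 34 (0.0605 to 0.114), and at day 21 without HNKO library 37 (0.448), where the log2 fold change was 1.18.

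Col6a5 was at 5.20 ± 5.57 CPM in HNKO (SD, n = 5) and 0.658 ± 0.198 CPM in WT (n = 4) at day 6, where its log2 fold change of 2.98 ± 0.78 (adjusted p = 0.0102) was the next below that of Col1a1, and it was called again at day 12 (2.18 ± 0.68, adjusted p = 0.0409). Col6a6 was called at day 6 (1.80 ± 0.54, adjusted p = 0.0237), with 3.24 ± 2.89 CPM in HNKO and 0.939 ± 0.299 CPM in WT. Col6a2 was called at day 6 (1.46 ± 0.40, adjusted p = 0.0143), with 15.7 ± 8.14 CPM and 5.70 ± 0.329 CPM. Col6a1, its partner in the assembled molecule, had a log2 fold change of 1.03 ± 0.36 (adjusted p = 0.0526) at day 6 and missed the threshold. Without HNKO library 7 of day 6, the calls of that day were lost for Col6a2 (adjusted p = 0.0607) and Col6a5 (0.0670, with the log2 fold change at 2.07). Without it the log2 fold change of Col6a6 was 1.13. The call of Col6a6 was lost without HNKO library 7 or 29 or WT library 8, 10 or 28 (adjusted p = 0.0536 to 0.154) and in a fit on the 2 groups of day 6 (0.0814). The day 12 call of Col6a5 was lost without HNKO library 12, 13 or 32 or WT library 15, 16, 33 or 34 (adjusted p = 0.0611 to 0.103), with all 40 libraries (0.0596), and in a fit on the 2 groups of day 12 (0.0604). Over the mean of the days, Col6a1 (0.68 ± 0.17, adjusted p = 0.00218) and Col6a2 (0.99 ± 0.19, adjusted p = 0.000120) were both called higher.

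Among the 16 chains of other kinds, 1, 3, 0, and 0 were called higher at days 3, 6, 12, and 21 (beside 2.95%, 8.42%, 4.56%, and 2.21% of all genes). At day 6, 1 was called lower (beside 4.37%). The median log2 fold change of these chains was 0.12, 0.35, 0.11, and 0.32. The fibril-associated collagens (FACIT) coat fibrils and tie them to other matrix. Of these, Col16a1 was called at day 3 (0.84 ± 0.24, adjusted p = 0.0355) and day 6 (0.83 ± 0.26, adjusted p = 0.0284), and Col12a1 at day 6 (1.09 ± 0.35, adjusted p = 0.0331), with 8.36 ± 3.70 CPM in HNKO (SD, n = 5) and 3.93 ± 0.626 CPM in WT (n = 4). The day 3 call of Col16a1 was lost without HNKO library 2, 3 or 23 or WT library 5, 24 or 25 (adjusted p = 0.0548 to 0.157), in a fit on the 2 groups of day 3 (0.148), and with all 40 libraries (0.0631). Its day 6 call was lost without HNKO library 7 or 29 or WT library 8, 10 or 27 (adjusted p = 0.0607 to 0.109) and with all 40 libraries (0.0506). That of Col12a1 was lost without HNKO library 7 or 29 or WT library 8, 10 or 28 (adjusted p = 0.0560 to 0.166), in a fit on the 2 groups of day 6 (0.0518), and with all 40 libraries (0.0512). Col14a1, with group means of 115 to 165 CPM, was called over the mean of the days (0.22 ± 0.07, adjusted p = 0.0114) and at 0 single days. Col9a3 and Col20a1 were not called, and Col20a1 shares 79 exon bases with BX649560.1 on the same strand.

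The multiplexins Col15a1 and Col18a1 sit in basement membrane zones, and both release endostatin-like fragments. Col18a1 was at 1101 ± 233, 1034 ± 117, 1306 ± 102, and 1145 ± 181 CPM in HNKO (SD, n = 5, 5, 6, and 3) and at 1328 ± 164, 1335 ± 41.6, 1566 ± 112, and 1486 ± 181 CPM in WT (SD, n = 5, 4, 5, and 5) at days 3, 6, 12, and 21. The log2 fold change was -0.27, -0.37, -0.26, and -0.38, with 0 calls at single days in the fit used throughout. DESeq2, and a fit with library numbers 1 to 21 and 22 to 41 as a covariate, called Col18a1 lower at day 6. Every HNKO library was below every WT library at days 6 and 12 (beside 4.68% and 2.14% of all genes). The gap was narrow at day 12, between 1440 CPM in the highest HNKO library and 1446 CPM in the lowest WT library. Over the mean of the days Col18a1 was called lower (-0.32 ± 0.06, adjusted p = 0.000149). Col15a1 was called higher over the mean of the days (0.51 ± 0.16, adjusted p = 0.00989), with its highest log2 fold change, 0.95, at day 3.

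Of the short-chain network collagens, Col8a1, which is made in vessel walls, was called at day 6 (1.40 ± 0.42, adjusted p = 0.0262), and Col8a2 and Col10a1 at 0 days. The call of Col8a1 was lost without HNKO library 7 or 29 or WT library 8, 10 or 27 (adjusted p = 0.0670 to 0.100), in a fit on the 2 groups of day 6 (0.0814), and with all 40 libraries (0.105). Of the transmembrane collagens, Col13a1, found at cell to matrix contacts, was called lower at day 6 (-0.83 ± 0.21, adjusted p = 0.00734), with 5.62 ± 1.33 CPM in HNKO (SD, n = 5) and 10 ± 3.57 CPM in WT (n = 4), and lower over the mean of the days (-0.48 ± 0.10, adjusted p = 0.000427). The day 6 call of Col13a1 was lost in a fit on the 2 groups of that day (log2 fold change of -0.84, adjusted p = 0.0694) and without WT library 8 (0.0624). At day 6, 3 of the 5 HNKO libraries lay below every WT library, and at day 21 every HNKO library did (beside 6.7% of all genes), where the log2 fold change of -0.61 ± 0.23 (adjusted p = 0.138) missed the threshold. Col23a1 was called higher over the mean of the days (0.62 ± 0.19 (adjusted p = 0.0101); 0.0610 with all 40 libraries), and Col17a1 and Col25a1 were not called. Col7a1, the chain of anchoring fibrils, was not called. Col28a1 was called higher over the mean of the days (1.41 ± 0.52, adjusted p = 0.0319), from a median of 3 counts a library and through the libraries that let it pass the rule. This call was lost without HNKO library 37 or 40 or WT library 28 (adjusted p = 0.0502 to 0.0949).

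Levels were compared between chains per kb of transcript. Col18a1 stood first in both genotypes, at a median of 291 CPM per kb over the 19 WT libraries and 237 over the 19 HNKO libraries. Over the WT libraries of all days, the next medians were those of Col14a1 (21.2 CPM per kb), Col4a1 (12.9), Col3a1 (9.34), and Col4a2 (7.22). Over the HNKO libraries they were those of Col3a1 (34.3 CPM per kb), Col14a1 (23.5), Col4a1 (20.1), and Col4a2 (13.2). Col1a1 stood at rank 15 in WT (1.37 CPM per kb) and rank 7 in HNKO (8.19), while Col13a1 stood at rank 11 in WT and 16 in HNKO. The order varied with the day. At day 3, WT Col3a1 (median of 16.5 CPM per kb) stood above Col4a1 (13.8), and at day 12 it stood below Col4a2 (8.41 and 9.07). In HNKO, Col4a1 stood above Col14a1 at day 3 (23.4 and 23.03 CPM per kb). The range of Col18a1 overlapped that of no chain after it in either genotype. The chains next after it overlapped their neighbours in WT, except Col14a1 with Col4a1, and the libraries ranged from 16.9 to 25.9 CPM per kb for Col14a1, from 8.85 to 15.9 for Col4a1, from 7.81 to 21.4 for Col3a1, and from 5.50 to 10.7 for Col4a2. They overlapped in HNKO as well, where the libraries ranged from 9.67 to 105 CPM per kb for Col3a1, from 17.2 to 34.1 for Col14a1, and from 13.4 to 43.6 for Col4a1.

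**Figure D3:**
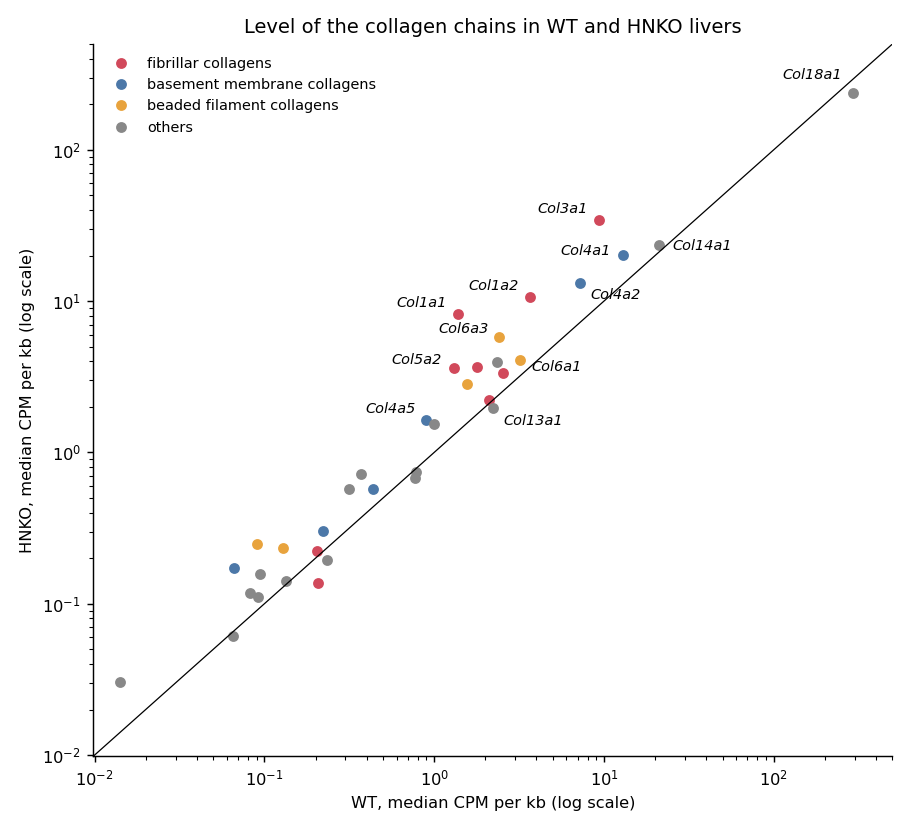
Each point is 1 collagen chain, with its median level in WT libraries (x axis) against that in HNKO libraries (y axis), both in CPM per kb on log scales; the line marks equal levels and colours mark the classes. Col1a1, Col3a1, and Col1a2 lie farthest above the line. Col24a1 lies farthest below it, and Col18a1, Col25a1, Col20a1, Col13a1, Col7a1, and Col10a1 also lie below.

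Summed over the 36 chains, the level per kb had group means of 402 to 419 CPM per kb in HNKO and 358 to 416 in WT over the days. Col18a1 made up 77.8% ± 1.47 of the sum in WT (SD, n = 4) and 53.1% ± 12.7 in HNKO (n = 5) at day 6, and its group means over the days ran from 74.4% to 78.8% in WT and from 53.1% to 67.1% in HNKO. The fibrillar chains made up 5.91% ± 0.743 in WT and 23.3% ± 10.1 in HNKO at day 6, with group means of 5.91% to 8.57% and 13.2% to 23.3% over the days. Basement membrane chains held 5.18% to 6.14% in WT and 8.26% to 10.3% in HNKO. These shares restate the fold changes above and were not tested on their own.

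**Figure D4:**
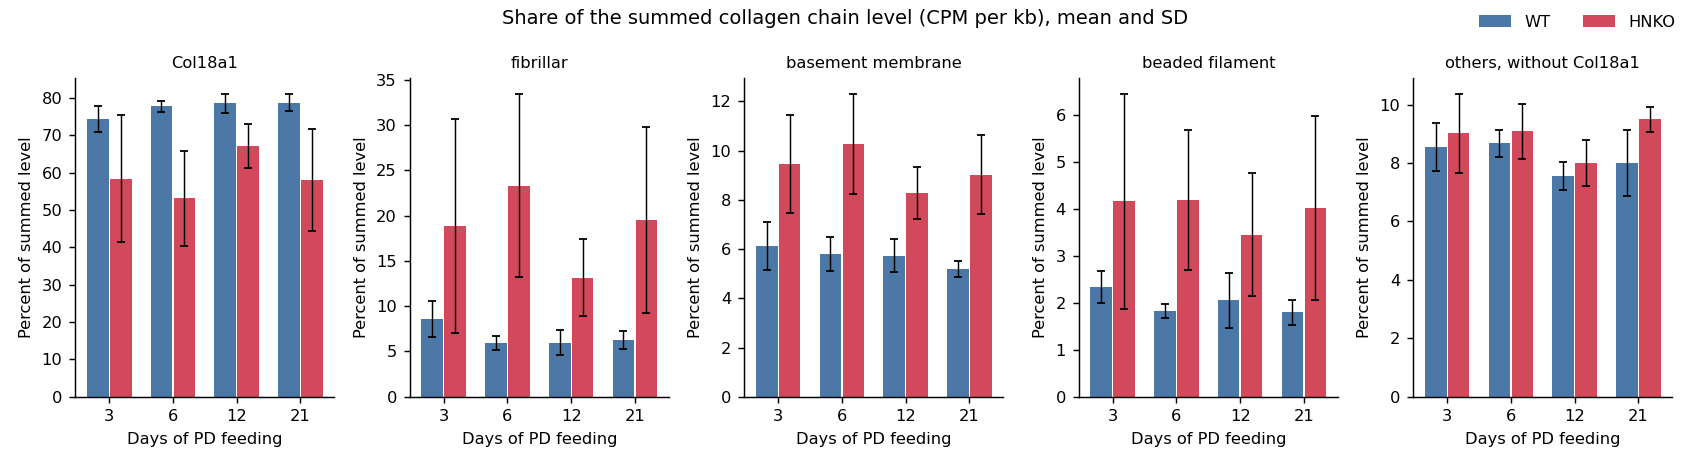
Bars give the mean percentage of the summed collagen chain level (CPM per kb) held by Col18a1 and by each class at each day of PD feeding, with WT in blue, HNKO in red, and error bars of 1 SD over 3 to 6 libraries; the axes differ between panels and start at 0. The fibrillar bar of HNKO is 13.2% to 23.3% against 5.91% to 8.57% in WT, and the Col18a1 bar is lower in HNKO at each day.

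Chains that belong to 1 molecule or 1 fibril can be compared within a library, where scaling between libraries drops out. For 4 such pairs, the log2 ratio of counts (with 0.5 added) was compared between genotypes within days by a permutation test with 100000 resamples, two-sided and adjusted over the 4 pairs; the smallest p these resamples can give is 1e-05. The ratio of Col1a1 to Col1a2 was higher in HNKO by 1.004 on the log2 scale (adjusted p = 2e-05, 19 libraries a genotype). At day 6 it was -0.25 ± 0.26 in HNKO (SD, n = 5) and -1.79 ± 0.31 in WT (n = 4), without overlap, and the difference was 0.60, 0.85, and 1.03 at days 3, 12, and 21. Within type I collagen, the α1 transcript thus rose further than the α2 transcript.

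The ratio of Col3a1 to Col1a1 was lower in HNKO, with a mean difference of -0.84 on the log2 scale (permutation test, adjusted p = 2e-05). It was 1.91 ± 0.36 in HNKO and 3.29 ± 0.45 in WT at day 6 (SD, n = 5 and 4), and all HNKO libraries lay below all WT libraries at days 6, 12, and 21. The calls of Col1a1 were known when the pairs were listed. The ratio of Col4a1 to Col4a2 differed by 0.01 (permutation test, adjusted p = 0.866), with daily differences from -0.06 to 0.09 and group SDs of 0.07 to 0.32. The ratio of Col6a1 to Col6a2 was lower in HNKO, with a mean difference of -0.31 (permutation test, adjusted p = 2.67e-05), with daily differences from -0.39 to -0.19.

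**Figure D5:**
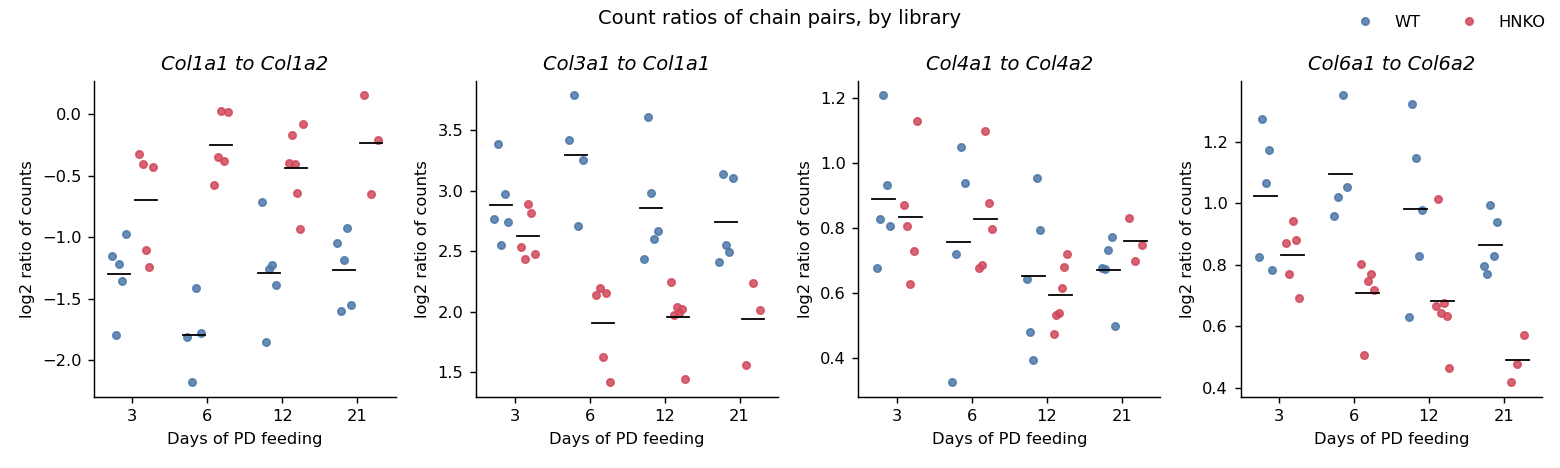
Each point is the log2 ratio of counts of 2 chains in 1 library, against days of PD feeding, with WT in blue, HNKO in red, and bars at the group means. HNKO points lie above all WT points for Col1a1 to Col1a2 at days 6 and 21, below all WT points for Col3a1 to Col1a1 at days 6, 12, and 21, and within the range of the WT points for Col4a1 to Col4a2 except for 1 point each at days 3, 6, and 21.

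The size of the genotype effect was not shown to differ between days for any chain. A test for an interaction of genotype and day called 0 of the 36 chains, beside 0% of all genes; at an unadjusted p under 0.05 it gave 1 chain, Col1a1, beside 4.76% of all genes, and DESeq2 called 0. The higher counts of calls at day 6 are counts against a threshold and not a tested difference between days. Within WT livers, 0 chains were called as changing over the days (beside 5.84% of all genes), 5 had an unadjusted p under 0.05 (beside 21.2%), and DESeq2 called 3. The count of 0 in WT became 1 or 2 without WT library 16, 27, 28, 33, or 41 or HNKO library 22 or 23. With library numbers 1 to 21 and 22 to 41 as a covariate it was 1, Col13a1. Within HNKO livers, edgeR called 0 (7.9% of all genes), 2 had an unadjusted p under 0.05 (22.9%), and DESeq2 called 0.

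The highest and lowest libraries of a group recurred among the 8 chains called at 3 or 4 days, more at some days than at others. These chains were chosen from genotype calls on the same libraries. The matching counts over all genes were not made, so nothing particular to the chains is read from the recurrence. At day 3, HNKO library 22 was the lowest of its group for all 8 chains, and the highest was library 23 for 5 chains and library 2 for 3. At day 6, library 29 was the highest for 6 of the 8 and library 6 the lowest for 6. At day 21, library 37 was the highest for all 8 and library 38 the lowest for 7, and in WT libraries 5 (day 3) and 10 (day 6) were the lowest for all 8. At day 12 the highest HNKO library was 13 for 5 chains, 12 for 2, and 35 for 1, and the lowest was 36 for 5, 32 for 2, and 11 for 1. WT libraries were split at days 12 and 21, where library 15 was the lowest for 5 chains and library 41 for 4. The library numbers run through the days from 1 to 21 and again from 22 to 41, and the labels do not say what the runs are. Because the 8 chains were called higher in these same libraries, the direction of the differences below was largely set by that choice. Within each run and day, the HNKO minus WT difference of mean log2 CPM ranged from 0.83 to 3.61 for Col1a1, from 0.48 to 2.20 for Col1a2, from 0.72 to 2.44 for Col3a1, from 0.88 to 2.19 for Col5a2, from 0.28 to 1.10 for Col4a1, from 0.48 to 1.16 for Col4a2, from 0.09 to 1.04 for Col4a5, and from 0.85 to 1.74 for Col6a3, over 7 run and day combinations with 2 or 3 libraries a genotype; day 21 of the first run held WT libraries only.

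Newly made collagen chains are hydroxylated, folded, trimmed outside the cell, and cross-linked by dedicated enzymes. Of 29 such genes tested (of 30 listed), 5, 13, 1, and 6 were called higher at days 3, 6, 12, and 21 (beside 2.95%, 8.42%, 4.56%, and 2.21% of all genes) and 0 lower at each day, with list medians of the log2 fold change of 0.32, 0.63, 0.23, and 0.33; 0 were called at all 4 days. These shares of all genes stand beside the counts of the receptor and degradation lists as well. The day 12 call was Plod2, the lysyl hydroxylase of the chain ends, and the day 3 calls were P4ha2, Plod2, Crtap, Adamts2, and P3h2, named here after their values were seen because they are few. Of 9 collagen receptors tested (of 10 listed), 4, 4, 3, and 2 were called higher and 0 lower, with list medians of 0.61, 0.76, 0.34, and 0.48. Ddr1, a receptor tyrosine kinase that binds collagen, was called at all 4 days, with log2 fold changes of 2.29 ± 0.38, 2.54 ± 0.42, 1.83 ± 0.36, and 2.11 ± 0.40 (SE, adjusted p = 0.000163 to 0.00431). Mrc2, which takes up collagen fragments, was also called at all 4 days, with log2 fold changes of 1.80 ± 0.38, 2.56 ± 0.44, 1.51 ± 0.36, and 2.09 ± 0.42 (0.000277 to 0.0109). Of 9 genes of collagen degradation and its inhibition, 3, 6, 2, and 2 were called higher and 0 lower, with list medians of 0.75, 1.30, 0.87, and 1.10. Timp1, an inhibitor of matrix metalloproteinases, was called at all 4 days, with log2 fold changes of 4.39 ± 0.73, 6.31 ± 0.90, 3.47 ± 0.70, and 3.79 ± 0.74 (2.96e-05 to 0.00445).

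Markers of the liver's cell types were read beside the chains. Of 8 markers of activated fibroblasts, 2, 5, 1, and 2 were called higher at days 3, 6, 12, and 21 (beside 2.95%, 8.42%, 4.56%, and 2.21% of all genes, as for the lists that follow) and 0 lower, with summed levels of 36.9 to 75.4 CPM in WT libraries and 37.2 to 132 CPM in HNKO libraries. The 8 stellate cell markers summed to 385 to 480.3 CPM in WT and 338 to 572 CPM in HNKO, with Pdgfrb and Rgs5 called higher at day 3, Pdgfrb at day 6, and Des at day 12, when Colec11 and Reln were called lower, and 0 calls at day 21. Of the 8 cholangiocyte markers, 7, 7, 6, and 5 were called higher and 0 lower, with list medians of 1.82, 2.08, 1.89, and 1.71 and sums of 35.1 to 50.7 CPM in WT and 111 to 764 CPM in HNKO, without overlap. Cftr, Spp1, Tspan8, Epcam, and Cldn7 of that list were called at all 4 days. The 8 macrophage markers summed to 205 to 485 CPM in WT and 265 to 639.6 CPM in HNKO, with 1, 4, 1, and 1 called higher, Ccr2 at all 4 days. The 7 endothelial markers tested (of 8) gave 0 higher calls and, at days 6 and 12, Oit3 and Kdr lower (beside 4.37% and 3.27% of all genes called lower), and the 7 hepatocyte markers tested (of 8) gave 0 higher calls and Alb and Ttr lower at day 6. In no group was a tested marker of these lists at 0 in all libraries.

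The marker sums also differed between HNKO libraries of a day. At day 3, library 22, the lowest for the chains, had 37.2 CPM of activated fibroblast markers and 114 CPM of cholangiocyte markers, while libraries 2 and 23 had 115 and 132 CPM of the former and 411 and 387 CPM of the latter. At day 6, library 29, the highest for 6 of the 8 chains, had 113 CPM of activated fibroblast and 764 CPM of cholangiocyte markers. Library 7 had 129.6 and 217 CPM. At day 12, library 13, the highest for 5 chains, had 110.3 and 179.7 CPM. The activated fibroblast sum was thus higher in library 7 than in library 29. The marker sums did not follow the chains in every library. At day 21, library 37 had 115 and 494 CPM, and library 38 had 56.8 and 137 CPM. Hepatocyte marker sums ranged from 60680 to 125200 CPM in HNKO libraries and from 87460 to 145700 CPM in WT libraries. They were 60680 CPM in library 29, 68520 in library 23, and 77460 in library 37, below the WT range. In libraries 2, 7, and 13 they were 91850, 91230, and 91010 CPM, within it. The part of these cell types in the differences between chains was not tested.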

How the data were processed

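Total RNA from whole liver was sequenced in 40 libraries. Per the labels and the study's methods, rRNA-depleted stranded libraries were read as pairs of 51 bases, and the authors aligned them to GRCm38 with STAR 2.7.2b and counted fragments per GENCODE M22 gene with featureCounts 1.6.4. The submitters' processing notes also name edgeR 3.26.0. The deposited values were raw counts of whole fragments, with no normalisation by the authors, and 0 columns lacked a sample. HNKO libraries 17 and 18, described as failing quality control, were left out, so 38 libraries entered each comparison, with 16151037 to 64181492 counts and a median of 26466478.5. Library numbers in the text are those of the labels and do not pair samples.

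Genes were matched to symbols by Ensembl identifier (55394 of 55487). Genes with low counts were removed with filterByExpr (minimum count 10, minimum total 15, minimum share 0.7), which left 20297 genes and 99.9372% of counts, and all 36 collagen chains stayed in. Counts were scaled by TMM and tested with edgeR 4.0.16 (quasi-likelihood test, legacy computation, R 4.3.3), with 1 mean per genotype and day and Benjamini-Hochberg adjustment over all genes tested. A gene was called at an adjusted p under 0.05. Fold changes are fitted values of HNKO against WT. Pair ratios were tested by permuting genotype within days. Tests were checked on simulated counts, where 95.8% to 100% of genes changed by 2 on the log2 scale were called over the 8 contrasts. Only genes above a minimum mean level were changed. The check thus does not describe chains at low levels or smaller differences, such as those of most chains here.

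The members and lists were chosen with earlier results of these data known. For chains called at 3 or 4 days, values are given library by library. The exception is the 6 HNKO libraries of day 12, given as lowest, median, and highest. Other chains are given by class, and of the other lists the genes called at all 4 days are named, at most 6 a list. Gene positions and exon overlaps came from GENCODE M21 on GRCm38, transcript lengths from the same annotation, and promoter windows from RefSeq. The alternatives tried were DESeq2 1.42.0, its size factors in edgeR, 2 other filters on low counts, all 40 libraries, the edgeR 4 computation, the 2 runs of library numbers as a covariate, fits on the 2 groups of a day, and leaving out each library in turn, and for the pair ratios also a pseudocount of 5 and strata of day and run.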

Additional observations from a re-analysis of the deposited data

Results flagged for a closer look

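Over the 8 chains called at 3 or 4 days, 56 groups of 4 to 6 libraries were tested by Dixon's criterion. Of these, 3 held a library far from the others, which chance gives in about 1 in 20 groups. WT library 5 of day 3 was low for Col1a2, at 16.8 CPM where the nearest library held 30 CPM, and for Col5a2, at 7.87 CPM where the nearest held 14.04 CPM. WT library 41 of day 21 was high for Col4a2, at 60.6 CPM where the nearest library held 46.6 CPM.

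HNKO libraries 17 and 18 of day 21, which entered only the alternative with all 40 libraries, were set beside the WT libraries of day 21 with all 40 libraries scaled together. They held 12287423 and 15935527 counts. Library 17 was above every WT library for 13 of the 36 chains and below every WT library for 15, with 11 chains at 0 counts, beside 25.2% of all genes tested above and 58.7% below. Library 18 was above for 20 chains and below for 8, beside 28.4% and 36.8% of all genes. Of the 8 chains called at 3 or 4 days, a choice made from the genotype calls, 5 were above in library 17 and 1, Col4a1, below, and 8 were above in library 18. Col1a1 was at 41.5 CPM in library 17 and 82.2 CPM in library 18, where the highest WT library held 12.4 CPM. Col1a2 was at 51.1 and 102 CPM (WT at most 23.6), and Col3a1 was at 124 and 281 CPM (WT at most 69.9). Col5a2 was at 10.9 and 26.7 CPM (WT at most 9.21), and Col6a3 was at 54.0 and 69.8 CPM (WT at most 23.4). The type IV chains were above WT in library 18 alone, with Col4a1 at 154 CPM (WT at most 86.3), Col4a2 at 81.0 CPM (WT at most 61.1), and Col4a5 at 12.6 CPM (WT at most 8.92). In library 17 they were at 56.3, 47.9, and 8.25 CPM, and its Col4a1 lay below the lowest WT library (69.8 CPM). Col13a1 was at 3.31 and 2.15 CPM, below the lowest WT library (5.65 CPM).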

How the results depend on the processing

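DESeq2 called 2 chains lower at day 6, Col13a1 and Col18a1 (1 in edgeR's quasi-likelihood test), and 3 as changing over the days in WT, Col13a1, Col15a1, and Col27a1 (0). With all 40 libraries, 3 chains were called higher at day 3 (7), 3 higher at day 12 (7), 2 lower at day 21 (0), Col13a1 and Col24a1, and 1 as changing over the days in HNKO (0), Col13a1. With the runs of library numbers as a covariate, 2 were called lower at day 6, Col13a1 and Col18a1, and 1 as changing over the days in WT, Col13a1. Fits on the 2 groups of a day called 1 chain higher at day 3, Col4a2, and 0 lower at day 6, where Col13a1 was lost. The log2 count ratio of Col4a1 to Col4a2, HNKO minus WT, was 0.01 and turned to -0.00755 with all 40 libraries and to -0.00227 with strata of day and run. The other planned settings, which were other size factors, the edgeR 4 computation, and both filters, kept each count of chains within 1.5 times. The lower calls over all genes moved by more than this without a filter on low counts.

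Leaving out 1 library at a time gave 0 to 9 chains called higher at day 3, 9 to 18 at day 6, 1 to 9 at day 12, 0 to 9 at day 21, and 21 to 23 over the mean of the days. Lower calls ranged from 0 to 3 at day 6 and from 0 to 1 at day 21, and stayed at 0 at days 3 and 12 and at 3 over the mean of the days. Chains changing over the days in WT ranged from 0 to 2, and in HNKO and for the interaction stayed at 0. The log2 ratio differences ranged from 0.96 to 1.06 for Col1a1 to Col1a2, from -0.88 to -0.79 for Col3a1 to Col1a1, from -0.34 to -0.29 for Col6a1 to Col6a2, and from -0.0258 to 0.0345 for Col4a1 to Col4a2. Of 27 calls of the 8 chains at single days, 8 were made without each library in turn, 7 of them at day 6 and 1 at day 12, and in no case did a fold change of these chains turn its direction. The causes of these changes were not tested. No paired analysis was possible because the groups share no replicate numbers.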
